A study of Homo sapiens with 5 samples.

Results

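The nuclear genes of respiratory complex I were examined for MYC and HSF1 peaks in OVCAR8 cells, an established human ovarian carcinoma line. The set holds the 48 protein-coding genes of GENCODE 44, of 20033 in all, whose symbols begin with NDUFA, NDUFB, NDUFC, NDUFS or NDUFV. Of these, 40 are subunit genes by symbol and 8, NDUFAF1 to NDUFAF8, encode assembly factors that help build the complex without staying in it. Among the subunits, 7 encode the nuclear part of the conserved catalytic core (NDUFS1, NDUFS3, NDUFS7, NDUFS8, NDUFV1 and NDUFV2 among them), and the other 33 are called accessory here. The accessory group includes NDUFA4, whose product is now placed in complex IV, its paralog NDUFA4L2 and the readthrough gene NDUFC2-KCTD14, which match the symbol rule without being established subunits.

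Complex I, the NADH:ubiquinone oxidoreductase of the inner mitochondrial membrane, passes electrons from NADH through a flavin and a chain of iron-sulfur clusters to ubiquinone and pumps protons as it does so. Its membrane core is encoded by mitochondrial DNA, so every gene described here must be transcribed in the nucleus and its product imported. MYC, a transcription factor that pairs with MAX at E-boxes, is known for driving growth and mitochondrial gene programs, and HSF1 is the activator of the heat shock response.

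Untreated, proliferating OVCAR8 cells grown in DMEM with serum were fixed with 1% formaldehyde for 1 minute, and 500000 cells entered each CUT&RUN reaction, in which an antibody brings a nuclease to a DNA-bound protein and the released fragments are sequenced. The groups are 2 libraries with an antibody to MYC, 2 with an antibody to HSF1 and 1 with control IgG, all from this one line and with no treated or altered cells. Nothing in the labels says that replicates were separate cultures, so the spread between them may be technical. Depth ran from 8265647 to 10084407 fragments over the 4 antibody libraries, and the MYC lists had 25623 and 13278 peaks on chromosomes 1 to 22, X and Y against 6421 and 4459 for HSF1.

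A gene was counted for a list when a peak overlapped, by at least 1 bp, the stretch from 1 kb before to 1 kb after any of its annotated start sites. The height of a peak is its fold enrichment, the authors' ratio of pileup to the IgG background, and the highest peak in the window stands for the gene. A missing peak means that none was called at that library's depth and threshold. The peak thresholds were p-values of 1e-10 for MYC and 1e-04 for HSF1, so the HSF1 lists had the more permissive setting. With 2 lists against 2, an exact two-sided permutation test cannot give a p below 0.333, and therefore counts are described beside those over all protein-coding genes, with no test.

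The letters under the MYC peaks come first. The E-box CACGTG, the high-affinity site of the MYC and MAX pair, lay within 100 bp of a MYC summit at the 5 genes printed here from GRCh38, each read 5′ to 3′ along its gene, with the E-box in capitals. For NDUFS7 and NDUFAF4 only the site itself is shown.
NDUFS7, chr19:1383708-1383737, plus strand: acccgcggccccCACGTGcgcactccgatg
NDUFS6, chr5:1800606-1800731, plus strand: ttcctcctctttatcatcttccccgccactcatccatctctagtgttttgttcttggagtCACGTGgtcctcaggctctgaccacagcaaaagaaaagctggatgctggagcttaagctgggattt
NDUFA11, chr19:5903857-5903982, minus strand: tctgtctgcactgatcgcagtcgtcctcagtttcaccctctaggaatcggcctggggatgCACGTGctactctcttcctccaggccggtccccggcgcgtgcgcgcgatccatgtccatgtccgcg
NDUFA7, chr19:8321430-8321495, minus strand: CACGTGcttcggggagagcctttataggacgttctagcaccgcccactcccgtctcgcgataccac
NDUFAF4, chr6:96897824-96897853, minus strand: cgccggtgttccCACGTGcggcctgaacct

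NDUFS7, a core subunit that holds the last iron-sulfur cluster before ubiquinone, was the gene whose E-box lay nearest to both summits, at 31 bp in MYC replicate 1 and 7 bp in replicate 2. The E-box of NDUFS6, a zinc-binding subunit, lay 71 and 134 bp from the summits. That of NDUFA11, a membrane-arm subunit, was 64 bp from the replicate 2 summit but 424 bp from that of replicate 1. At NDUFA7 the distances were 76 and 235 bp, and at NDUFAF4, an assembly factor of the quinone-binding module, 64 and 209 bp. The NDUFS7 site was thus the single one of the 5 within 100 bp in both lists. The MYC summits at NDUFS6, at -667 and -604 bp from its own start, lay nearer to that of MRPL36, at 626 and 563 bp. Those at NDUFA7, at -194 and -353 bp from its own nearest start, lay nearer to that of RPS28, at 65 and 94 bp.

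HSF1 peaks were called at NDUFAF3 and NDUFA11 in both HSF1 lists, and the 81 bp centred on their replicate 1 summits are shown because they are the HSF1 sites of this gene set that both lists share. No letters are capitalised, since neither window holds the heat shock element searched, GAANNTTCNNGAA on either strand.
NDUFAF3, HSF1 replicate 1, chr3:49021817-49021897, plus strand: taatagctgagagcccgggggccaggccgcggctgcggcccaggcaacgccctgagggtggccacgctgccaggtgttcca
NDUFA11, HSF1 replicate 1, chr19:5904176-5904256, minus strand: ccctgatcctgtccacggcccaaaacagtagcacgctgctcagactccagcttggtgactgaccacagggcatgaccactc

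MYC peaks were called at 37 of the 48 genes (77.1%) in replicate 1 and at 26 (54.2%) in replicate 2, against 55.3% and 41.2% of all protein-coding genes. Both lists held a peak at 24 genes (50%), beside 40.1% of all genes. These 24 were 64.9% of the complex I genes in replicate 1 and 92.3% of those in replicate 2, with 72.4% and 97.3% for all genes. Replicate 1 alone accounted for 13 genes, replicate 2 alone for 2, and neither list had a peak at the remaining 9. Over all 20033 protein-coding genes these counts were 3056, 221 and 8732. A peak in at least 1 MYC list was thus called at 81.2% of the set and at 56.4% of all genes. The share of complex I genes was above that of all genes in each MYC list, and the 2 MYC lists differed from each other by more than either differed from its background.

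HSF1 peaks were rare at these genes. Replicate 1 held them at 3 genes (6.25%) and replicate 2 at 2 (4.17%), beside 8.58% and 6.85% of all protein-coding genes. Only NDUFAF3 and NDUFA11 had HSF1 in both lists, which is 4.17% of the set where the share over all genes was 3.49%, and both also had MYC in both lists, where 3.05% of all genes had both factors. At 2 genes these shares lie near the background. Every complex I gene with an HSF1 peak in either list, 3 in all, also had MYC peaks in both MYC lists. These were 6.25% of the set, where 11.9% of all protein-coding genes had HSF1 in either list. How many of the latter had MYC was not counted. By the stricter rule of HSF1 in both lists, 611 of 699 protein-coding genes had MYC in both lists too, beside 2 of 2 in the set.

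**Figure D1:**
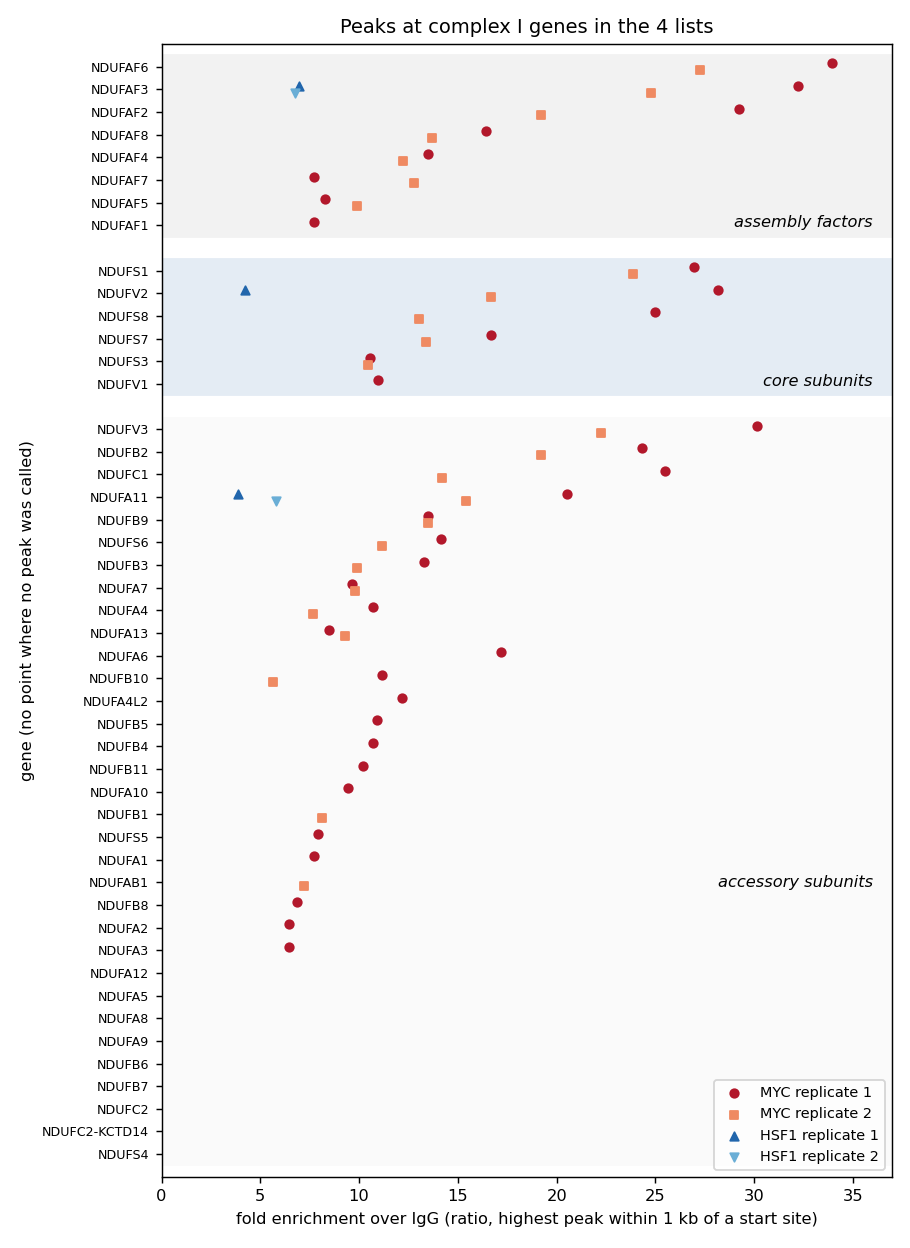
Fold enrichment over IgG (ratio, linear axis) of the highest peak within 1 kb of a start site, 1 row for each gene shown, grouped as assembly factors, core subunits and accessory subunits, with circles and squares for the 2 MYC lists and triangles for the 2 HSF1 lists. HSF1 points appear at NDUFAF3, NDUFA11 and, in replicate 1, NDUFV2, all at 6.96 or lower, and 9 accessory subunits have no point.

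All 8 assembly factors had a MYC peak in replicate 1 and 7 had one in replicate 2, so that 7 of 8 (87.5%) were in both lists, where NDUFAF1 was in replicate 1 alone. Of the 40 subunits, 29 were in replicate 1, 19 in replicate 2 and 17 (42.5%) in both. The difference in the share with a peak was 27.5 percentage points in replicate 1, 40 in replicate 2 and 45 for both lists together, with a standard deviation of 8.84 points between the lists. When the longer MYC list was cut to the length of the shorter, 4 of 8 assembly factors and 14 of 40 subunits were left and the difference was 15 points. With 8 assembly factors, 1 gene moves that share by 12.5 points, and no test was made of genes as if they were replicates.

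NDUFAF6, which takes part in building the quinone-binding module and its junction with the membrane arm, had the highest peaks of the whole set, with fold enrichments of 34.0 and 27.3. They lay at an alternative start site, at -129050 and -129063 bp from the canonical one, and their summits were 685 and 672 bp from the start of CCNE2, the gene of a cyclin. At the canonical start site of NDUFAF6 the values were 30.2 and 17.6, so the gene had a peak in both lists there too.

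NDUFAF3, a partner of NDUFAF4 in the quinone module, reached 32.2 and 24.8, with summits upstream of its canonical start and 503 and 449 bp from that of DALRD3 on the opposite strand. NDUFAF2, the assembly paralog of the subunit NDUFA12, had values of 29.2 and 19.2 in its first intron, 445 and 414 bp from the start of ERCC8. The NDUFAF3 peaks were chr3:49021279-49022268 and chr3:49021271-49022398 in the 2 lists, with pileups of 57 and 52, and the NDUFAF2 peaks chr5:60945110-60946091 and chr5:60945172-60945750, with pileups of 61 and 48. Among all protein-coding genes with a peak in replicate 1, NDUFAF6 stood at percentile 96.4, NDUFAF3 at 95.5 and NDUFAF2 at 93.2.

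NDUFAF8, which stabilises NDUFAF5, had fold enrichments of 16.4 and 13.7, and NDUFAF4 of 13.5 and 12.2. NDUFAF7, an arginine methyltransferase, was higher in replicate 2 (12.8) than in replicate 1 (7.70), and the same order held for NDUFAF5, an arginine hydroxylase of NDUFS7 (8.28 in replicate 1 and 9.90 in replicate 2). NDUFAF1, a factor for the membrane arm, had 7.70 in replicate 1 with a pileup of 11 and its nearest replicate 2 peak 7372 bp away. The assembly factors thus spanned nearly the whole range of the set, and the 3 highest were well apart from the other 5.

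Of the 7 core subunits, 6 (85.7%) had MYC in both lists. This count was 5 at canonical start sites, at 1e-20 and at equal list length, beside 36.5%, 28.3% and 32.5% of all genes. With the summit nearest to the gene, a rule added after the data were seen, it was 4, beside 33.0%. NDUFS1, the large iron-sulfur subunit of the NADH-oxidising arm, had values of 26.9 and 23.9. Its summits lay at -254 and -209 bp from its own nearest start site, upstream of it, and 125 and 80 bp from that of EEF1B2, on the EEF1B2 side of both starts. NDUFV2, which carries an iron-sulfur cluster of the same arm, had 28.2 and 16.7, with summits 8 bp before and 9 bp after a start site and the next coding start, that of ANKRD12, 33401 bp or more away. The peaks were chr2:206159417-206160383 and chr2:206159195-206160423 at NDUFS1 and chr18:9102370-9103169 and chr18:9102297-9103169 at NDUFV2, with pileups of 41 and 40 and of 52 and 33. At each of these genes the highest peaks of the 2 lists overlap.

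NDUFS8, an iron-sulfur subunit of the quinone arm, had values of 25.0 and 13.0 at chr11:68030187-68030955 and chr11:68030194-68030958, with pileups of 62 and 39. NDUFS7 had 16.7 and 13.4. NDUFS3 had 10.6 and 10.5 at an alternative start site, with the summits 18 bp from a start of CELF1 in replicate 1 and 200 bp from one of PTPMT1 in replicate 2, at -13587 and -13844 bp from the canonical one, where only replicate 1 had a peak, of 10.4. NDUFV1, which binds NADH and the flavin, was the core gene missing from replicate 2, with 11.0 in replicate 1 and the nearest replicate 2 peak 17747 bp away. The median over the 6 core genes in both lists was 21.1 in replicate 1 and 13.5 in replicate 2.

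Among the 33 accessory subunits, 22 had MYC in replicate 1, 13 in replicate 2 and 11 (33.3%) in both, below the 40.1% of all genes. By family, 4 of 15 NDUFA subunits, 4 of 11 NDUFB, 1 of 3 NDUFC, 6 of 8 NDUFS and 2 of 3 NDUFV had MYC in both lists, where the NDUFS and NDUFV families hold the core genes. The median height of the 11 accessory genes was 13.5 in replicate 1 and 11.1 in replicate 2.

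NDUFV3, an accessory subunit of the NADH-oxidising arm, had the highest values of this group, 30.2 and 22.3, at an alternative start site 328 and 86 bp from the start of WDR4. At its canonical start site it had 10.2 and 9.80. NDUFB2, in the membrane arm, had 24.3 and 19.2 with summits in its first intron and the next coding start, that of ADCK2, 17938 bp or more away. NDUFC1, a small membrane-arm subunit, had 25.5 and 14.2 with summits 65 and 105 bp from the start of NAA15. The highest peaks were chr21:42878743-42879853 and chr21:42878680-42879853 at NDUFV3, chr7:140696637-140697451 and chr7:140696698-140697787 at NDUFB2 and chr4:139300888-139302580 and chr4:139301120-139302261 at NDUFC1.

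NDUFA11, with 20.5 and 15.4 at chr19:5903107-5904855 and chr19:5903314-5904803, completed the 10 highest genes and had the largest MYC pileups of the set, 129 and 83. The other 7 accessory genes in both lists ranged from 8.47 (NDUFA13) to 14.1 (NDUFS6) in replicate 1 and from 5.66 (NDUFB10) to 13.5 (NDUFB9) in replicate 2. NDUFA4 had 10.7 and 7.69, and leaving it out with NDUFA4L2 and the readthrough gene left 23 genes with MYC in both lists.

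MYC was in replicate 1 alone at 11 accessory subunits, at NDUFV1 and at NDUFAF1. NDUFA6, a small protein of the quinone arm that binds an acyl carrier, was the highest of these, with a fold enrichment of 17.2, a pileup of 62 and a -log10 p-value of 61.6, and yet the nearest peak in replicate 2 was 7340 bp away. NDUFA4L2 had 12.2, at an alternative start site and not at the canonical one. The remaining accessory genes were NDUFB5 (10.9), NDUFB4 (10.7), NDUFB11 (10.2), NDUFA10 (9.44), NDUFS5 (7.93), NDUFA1 (7.70), NDUFB8 (6.84), NDUFA2 (6.43) and NDUFA3 (6.43). The median over all 13 genes was 9.44, and over all protein-coding genes in replicate 1 alone it was 10.9.

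The genes in replicate 2 alone were NDUFAB1, the mitochondrial acyl carrier protein, with 7.20, and NDUFB1, with 8.14 and a summit 97 bp from the start of CPSF2. In replicate 1 the nearest peak to NDUFAB1 was 3018 bp away and to NDUFB1 11909 bp. Among all genes with a peak in replicate 2, these values stood at percentiles 6.36 and 13.5.

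No MYC peak was called in either list at NDUFA5, NDUFA8, NDUFA9, NDUFA12, NDUFB6, NDUFB7, NDUFC2, NDUFC2-KCTD14 and NDUFS4. NDUFA9 and NDUFA5 belong to the quinone arm, NDUFA12 and NDUFS4 to the NADH-oxidising arm, and NDUFB6, NDUFB7, NDUFC2 and NDUFA8 to the membrane arm or its outer face. The nearest peak of replicate 1 lay 10696 bp (NDUFA5) to 90178 bp (NDUFS4) from a start site, and that of replicate 2 11426 bp (NDUFA12) to 664474 bp (NDUFS4). NDUFC2 and NDUFC2-KCTD14 share their promoter and count as 1 locus. Among these genes, NDUFS4 was thus the farthest from a peak in each MYC list.

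**Figure D2:**
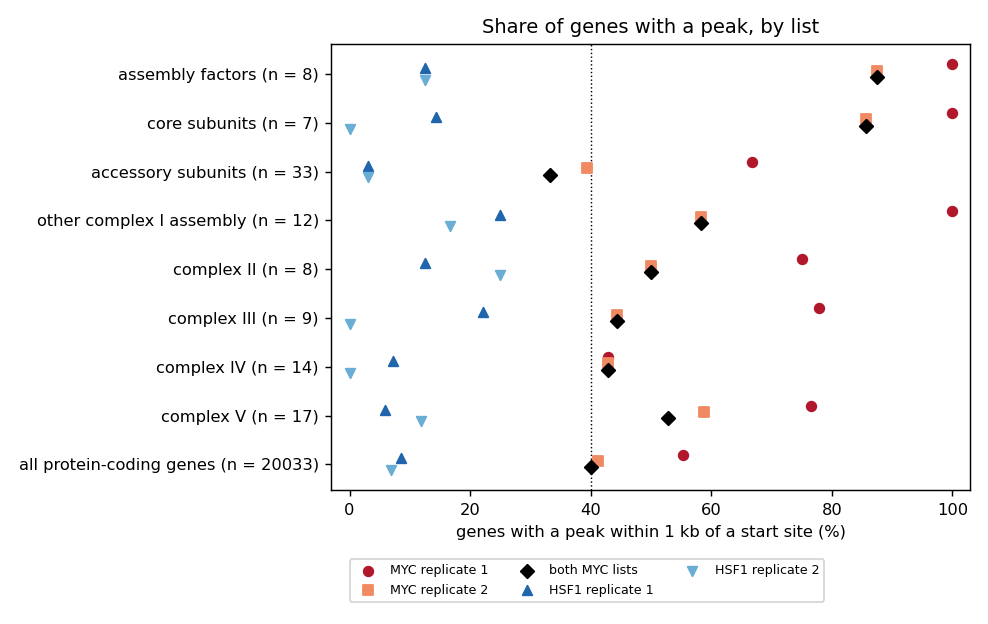
Share of genes (%, linear axis) with a peak within 1 kb of a start site in each list, for the complex I groups, the other respiratory chain lists and all protein-coding genes, with the share in both MYC lists as diamonds and the dotted line at 40.1%, its value over all genes. Assembly factors (87.5%) and core subunits (85.7%) lie right of the line and accessory subunits (33.3%) left of it.

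Over the 37 genes with a peak in MYC replicate 1, the median fold enrichment was 12.2, below the 14.6 of all 11080 protein-coding genes with a peak there, and 14 (37.8%) were above that median. In replicate 2 the order was the other way, with a median of 13.2 over 26 genes against 11.7 over 8245, and 16 (61.5%) above it. Over the genes in both lists the medians were 16.6 against 16.7 in replicate 1 and 13.4 against 11.9 in replicate 2. The heights at complex I genes were therefore not on one side of those at other bound genes.

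The heights kept their order between the MYC lists. Spearman's rho across the 24 genes was 0.887, and 0.560 across 8024 protein-coding genes, as a description only, since genes are not independent replicates and both lists share the IgG background. Replicate 1 was higher at 20 of the 24, by a median ratio of 1.26, from 0.602 at NDUFAF7 to 1.97 at NDUFB10. Over all protein-coding genes it was higher at 6511 of 8024, by a median ratio of 1.36, so this was no trait of the set. These ratios describe 2 libraries of 1 condition, and replicate 1, with the higher values, had fewer fragments (8265647 against 10084407).

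**Figure D3:**
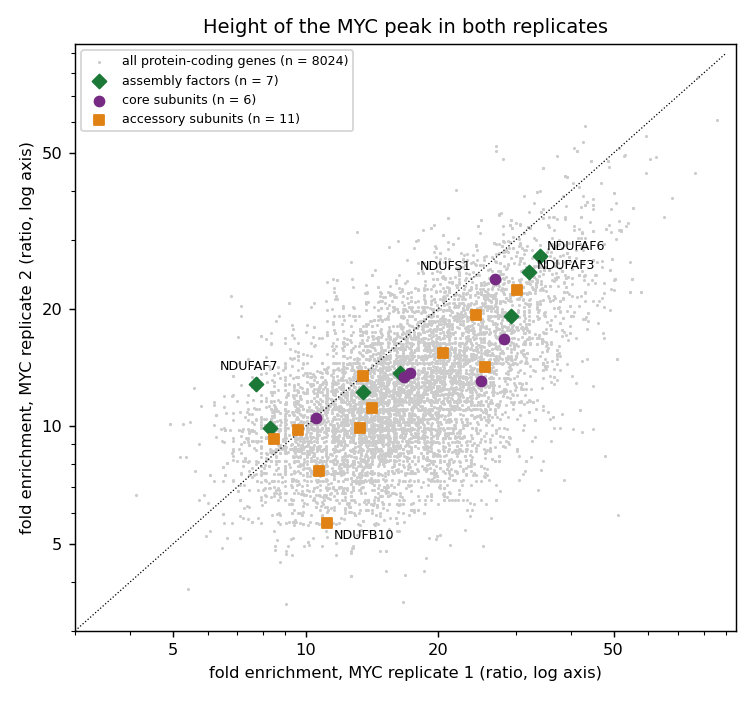
Fold enrichment of the MYC peak (ratio, log axes) in replicate 1 against replicate 2 for the 24 complex I genes in both lists, over 8024 protein-coding genes in grey, with the dotted line at equal values. NDUFAF6 and NDUFAF3 lie at the top right, NDUFAF7 above the line and NDUFB10 farthest below it among the complex I genes.

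Because only peaks overlapping the 1 kb windows were taken, closeness to a start site follows from the rule, and the summits are described within it. The median distance from the summit to the nearest start site of the gene was 105 bp over 37 genes in replicate 1 and 155.5 bp over 26 in replicate 2, beside 132 and 154 bp over all genes with a peak. Within 200 bp lay 30 of 37 summits (81.1%) and 17 of 26 (65.4%), beside 67.5% and 61.7% over all genes with a peak. By the canonical transcript, 26 of the 37 summits were upstream of the gene, 9 in an intron, 1 in a coding exon and 1 in an untranslated exon, and in replicate 2 16 of 26 were upstream, 7 in an intron and 3 in a coding exon. The summits of the 2 lists lay a median of 73 bp apart at the 24 genes, from 6 to 426 bp, and 13 pairs were within 100 bp.

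Many of these promoters are shared with another gene. A protein-coding gene on the opposite strand started within 1 kb of any annotated start site at 27 of the 48 genes (56.2%), against 17.7% of all protein-coding genes. MYC was in both lists at 17 of these 27 (63.0%), where the share over all genes with such a neighbour was 65.7%, and at 7 of the other 21 (33.3%), where it was 34.5%. Among the assembly factors, 7 of 8 had such a neighbour and 6 of the 7 had MYC in both lists, with NDUFAF4 the one factor without. Counted from canonical start sites alone, 22 of the 48 genes (45.8%) and 5 of 8 assembly factors had such a neighbour, against 13.9% of all genes. Peaks at these loci cannot be assigned to one gene of the pair. When a peak counted only if its summit was nearer to the complex I gene than to any other protein-coding gene, a rule chosen after the data were seen, 16 of the 48 genes (33.3%) kept MYC in both lists, beside 33.0% of all protein-coding genes under the same rule, so that the share was near the background. The genes that lost it were NDUFA7, NDUFAF7, NDUFAF8, NDUFB3, NDUFB9, NDUFS1, NDUFS3 and NDUFS6.

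At NDUFAF3 the HSF1 peaks, chr3:49021602-49021989 in replicate 1 and chr3:49021719-49021993 in replicate 2, had fold enrichments of 6.96 and 6.77, pileups of 12 and 11 and -log10 p-values of 11.0 and 10.3. At NDUFA11 they were chr19:5904156-5904771 and chr19:5903870-5904759, with fold enrichments of 3.87 and 5.79, pileups of 21 and 24 and -log10 p-values of 8.24 and 13.6. Every HSF1 peak at these genes lay wholly within the MYC peak of both MYC lists, over 388 and 275 bp at NDUFAF3 and over 616 and 890 bp at NDUFA11. The summits of the factors were 15 to 122 bp apart at NDUFAF3 and 6 to 354 bp apart at NDUFA11. All 4 summits lie upstream of the canonical start, and those at NDUFAF3 were 434 and 381 bp from the start of DALRD3.

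NDUFV2 had an HSF1 peak in replicate 1 alone, with a fold enrichment of 4.20, a pileup of 10 and a -log10 p-value of 5.94, in intron 1 at an alternative start site 14718 bp downstream of the canonical one. The nearest replicate 2 peak was 9582 bp away. It overlapped the second, lower MYC peak of the gene in each MYC list, by 491 and 245 bp. At the MYC threshold of 1e-10, NDUFAF3 was the one gene of the set with HSF1 in both lists, where 255 of all protein-coding genes were left.

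The motifs known at nuclear genes of the respiratory chain, and the heat shock element, were searched on both strands in the 300 bp around each canonical start site, from 250 bp before to 50 bp after it. These were the E-box CACGTG, the NRF1 core GCGCATGC, the ETS core CCGGAAG bound by GABP, the YY1 core AAGATGG and the SP1 core GGGCGG. None of these strings lies within another, although neighbouring matches may share bases. The E-box was in 5 of 48 promoters (10.4%), beside 8.76% of all 20033, the NRF1 core in 8 (16.7%) beside 4.27%, and the ETS core in 10 (20.8%) beside 14.1%. The YY1 core was in 12 (25.0%) beside 6.41%, the SP1 core in 32 (66.7%) beside 61.3% and the heat shock element in 0, beside 0.364%.

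The promoters with an E-box were those of NDUFA7, NDUFA11, NDUFAF5, NDUFAF6 and NDUFS7, and all 5 genes had MYC in both lists. They were 20.8% of the 24 genes with MYC in both lists, against 0 of the other 24, while 12.5% of all protein-coding genes with MYC in both lists had an E-box promoter. Of all 20033 promoters 1755 held an E-box, and 1002 of these were among the 8024 genes with MYC in both lists. E-box promoters were thus a small share in either group, and the split in the set rests on 5 genes. Within 100 bp of the summit, an E-box was found at 4 of 37 genes (10.8%) in replicate 1 and 2 of 26 (7.69%) in replicate 2, beside 7.62% and 6.53% of all genes with a peak. Within 250 bp it was found at 10 of 37 (27.0%) and 11 of 26 (42.3%), beside 21.2% and 23.1%. Most MYC summits at complex I genes therefore had no CACGTG within 100 bp, where the shares were 10.8% and 7.69%, and the gap to other genes was wider at 250 bp, above all in replicate 2. Anywhere inside a MYC peak of the gene, an E-box lay at 14 of the 24 (58.3%) in replicate 1 and at 12 of them in replicate 2, beside 34.3% and 27.8% of all protein-coding genes with MYC in both lists. Peak lengths were not matched in this count.

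The NRF1 core, the site of a regulator of nuclear genes for mitochondria, was split evenly, in 4 of the 24 promoters with MYC in both lists (NDUFAF4, NDUFAF5, NDUFS6 and NDUFS7) and 4 of the other 24 (NDUFA5, NDUFA6, NDUFA8 and NDUFB4). The YY1 core was in 4 and 8 of them and the ETS core in 6 and 4. Of the 8 promoters with the NRF1 core, 3 are shown from GRCh38, those whose core lies outside annotated untranslated regions. None of these 3 genes had MYC in both lists, with no peak at NDUFA5 and a peak in replicate 1 alone at NDUFA6 and NDUFB4. The capitals mark the core, which is on the opposite strand at NDUFA6 and on both strands at NDUFB4, where the matches overlap.
NDUFA5, chr7:123557909-123558036, minus strand: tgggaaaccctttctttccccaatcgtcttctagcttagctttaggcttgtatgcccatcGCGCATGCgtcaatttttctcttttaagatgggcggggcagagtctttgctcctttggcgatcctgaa
NDUFA6, chr22:42090885-42090998, minus strand: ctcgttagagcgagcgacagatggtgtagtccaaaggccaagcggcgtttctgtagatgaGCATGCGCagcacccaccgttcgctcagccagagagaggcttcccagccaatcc
NDUFB4, chr3:120596117-120596246, plus strand: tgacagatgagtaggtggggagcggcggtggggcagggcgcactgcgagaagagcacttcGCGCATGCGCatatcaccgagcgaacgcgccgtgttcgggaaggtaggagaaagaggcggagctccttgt

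**Figure D4:**
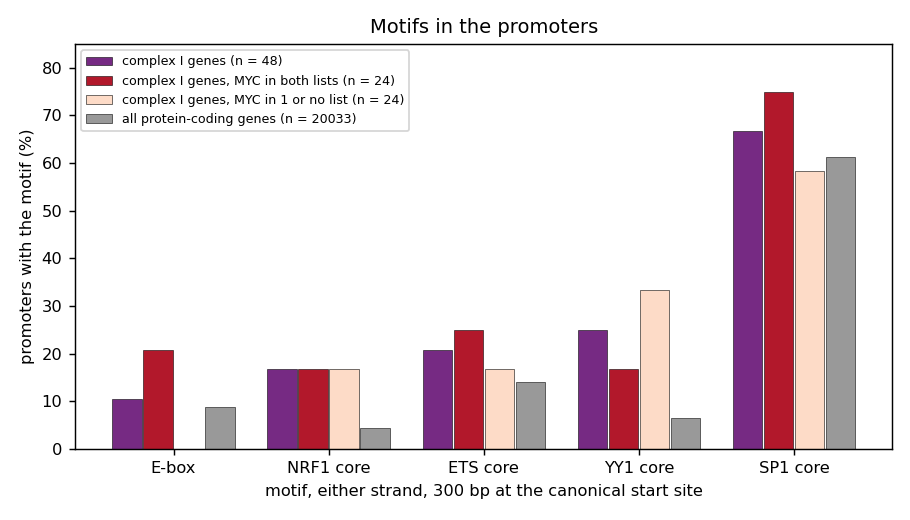
Share of promoters (%, bars from 0) holding each motif in the 300 bp at the canonical start site, for the 48 complex I genes, the 24 with MYC in both lists, the other 24 and all 20033 protein-coding genes. The E-box bar is empty for the 24 genes without MYC in both lists, with 5 E-box promoters in the whole set. The NRF1 bars of the 3 complex I groups are equal at 16.7%.

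The complex I promoters had a median GC content of 61%, from 40.3% to 74.7%, beside 63.7% for all protein-coding genes. With MYC in both lists the median was 62.7% over 24 complex I genes and 67.3% over all genes, and it was 58.7% over the other 24 complex I genes. Genes with MYC in both lists had a median of 7 annotated start sites, in the set and over all genes alike, and those with none had 4 in the set and 3 over all genes. Each additional start site widens the sequence searched, and the part this plays in the counts was not tested beyond the canonical start sites, at which 23 of the 48 genes and 36.5% of all protein-coding genes had MYC in both lists.

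Other genes of the respiratory chain, taken as lists by function, gave the following counts. Complex I assembly factors without an NDUF symbol had MYC in replicate 1 at 12 of 12 and in both lists at 7, against 8 of 8 and 7 of 8 for the NDUFAF genes. MYC was in both lists at 4 of 8 genes of complex II, 4 of 9 of complex III, 6 of 14 of complex IV and 9 of 17 of complex V. Regulators of these genes, such as NRF1, GABPA and TFAM, had MYC in both lists at 8 of 9. In all, 38 of 69 genes (55.1%) had MYC and 5 (7.25%) had HSF1 in both lists, namely DMAC2, a complex I assembly gene, SDHA, the flavin subunit of complex II, ATP5F1E of the ATP synthase, and the regulators ESRRA and YY1. The corresponding shares were 50% and 4.17% of the complex I genes and 40.1% and 3.49% of all protein-coding genes. The medians of MYC height over the 69-gene list were 17.5 and 12.1 in the 38 genes with MYC in both lists.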

How the data were processed

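CUT&RUN libraries of OVCAR8 cells were studied from 4 deposited peak lists, 2 for MYC and 2 for HSF1, each called by the authors on its own library against 1 IgG library. Per the file headers, MACS 2.2.9.1 used p-value thresholds of 1e-10 for MYC and 1e-04 for HSF1. The study's methods and the submitters' processing notes give demultiplexing with bcl2fastq 2.20.0, trimming, and alignment with Bowtie2 to GRCh38/hg38. For each peak the authors deposited a pileup signal at the summit, a fold enrichment that is a ratio to the IgG background, a −log10 p-value and a −log10 q-value, and the last was not used. These values were compared with those of other genes within a list, because libraries of different depth pass 1 threshold with different sensitivity. The fold enrichments of the 2 MYC lists were also set against each other, as a description only. Read counts per region are not in these lists, and count models were not used. Fragments numbered 8265647 to 10084407 per antibody library after duplicates were removed and 9306942 for IgG, and a peak near the threshold is therefore the least certain call.

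Genes and start sites came from GENCODE 44, and peaks on chromosomes 1 to 22, X and Y were used. A gene had a factor when both of its lists held a peak overlapping the window of 1 kb either side of any start site by 1 bp. Replicate lists were compared first, and MYC lists shared 8 identical intervals and HSF1 lists 2, so none was a copy. Sequences were read from GRCh38. RefSeq promoters matched 40 of the 48 genes and were not used for counts. The work used Python 3.11.15, pandas 2.3.3, numpy 2.4.6, pysam 0.24.0, scipy 1.17.1 and matplotlib 3.10.9, and the gene assignment was tested on simulated data. The gene set, the lists and the motifs were chosen with earlier results of these data known. Full values are given for the 10 genes with the highest mean MYC fold enrichment, genes with HSF1 in either list, genes with MYC in neither list and genes at which the MYC lists differ, and the rest by range (1 gene that enters the counts is not reported here), with values added for the other core subunits and assembly factors after they were seen. The alternatives were 17 planned and 1 added after the data were seen.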

Additional observations from a re-analysis of the deposited data

How the results depend on the processing

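No paired analysis was possible because these results are counts and medians over peak lists and come from no test. Of the values recomputed under other settings, 63 moved by less than the spread between lists or stayed within 1.5 times the count, and 13 did not. The 63 include MYC values under settings for HSF1 alone, and HSF1 values under settings for MYC alone, which could not change. With a peak in either list enough, 39 genes had MYC, beside 56.4% of all protein-coding genes, and the difference between assembly factors and subunits was 22.5 points. That difference was 27.5 points with MYC peaks at 1e-20, 15 with the longer list of each factor cut to the length of the shorter, where the MYC replicate 1 count fell to 19 genes, and 35 with the summit nearest to the gene, which was added after the data were seen. Leaving out 1 library at a time gave 24 to 37 genes with MYC and a difference of 27.5 to 45 points. Without MYC replicate 2 these were 37 genes and 27.5 points, and without MYC replicate 1 26 genes and 40 points. Leaving out an HSF1 library could not change either value, since both use the MYC lists alone. For HSF1 it gave 2 to 3 genes, and for both factors 2 to 3. HSF1 peaks at 1e-10 left 1 gene with HSF1 and 1 with both factors. The mean of the list medians of summit distance was 130.25 bp, and 208.75 bp to canonical start sites. The mean share of summits with an E-box was 9.25%, and 3.27% within 50 bp and 34.7% within 250 bp, where all genes had 21.2% and 23.1% in the 2 lists. The cause of these shifts was not tested, apart from windows and lists that are larger or smaller by construction. Genes with MYC in both lists numbered 19 at 1e-20 and 18 at equal list length, where 28.3% and 32.5% of all genes had it. At this depth a gene in 1 list or none cannot be called free of the factor.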

Other observations

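Outside the promoter windows, peaks lay inside or just past several complex I genes. NDUFA12, which had no peak at its start sites, had MYC peaks in intron 3 with fold enrichments of 13.7 and 11.0 in the 2 lists, and HSF1 replicate 1 had a peak of 3.61 at the same place, 11533 bp from the start site. NDUFA2, with a promoter peak in MYC replicate 1 alone, had MYC peaks of 19.2 and 8.64 downstream of the canonical gene, 7924 and 7661 bp from its nearest start site. NDUFB10 had MYC peaks of 12.7 and 5.06 at 1564 and 1970 bp, beside 11.2 and 5.66 at its promoter, and NDUFA11 had 11.7 and 6.09 beyond its canonical end. The readthrough gene NDUFC2-KCTD14 had 3 peaks in MYC replicate 1, of 11.5, 13.9 and 8.08, and none in replicate 2, while NDUFC2 itself had none. NDUFAF2 (10.6) and NDUFAB1 (7.70) each had 1 peak in intron 1 in MYC replicate 1. These peaks belong to no promoter count, and no gene was assigned to them.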
